A study of Mus musculus with 6 samples.

Results

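The GIMAP genes (GTPases of immunity-associated proteins) are a family of GTP-binding proteins encoded side by side in a single gene cluster. The 8 mouse members taken here, Gimap1, Gimap3, Gimap4, Gimap5, Gimap6, Gimap7, Gimap8 and Gimap9, were chosen by symbol, and all 8 were found among the 16022 gene symbols of the table. RNA was sequenced from bone marrow LSK cells, which lack lineage markers, carry Sca-1 at a high level and are positive for c-kit. Blood stem cells and the earliest progenitors lie within this gate. The 3 HDAC6 knockout (KO) libraries, from mice deficient in the deacetylase HDAC6, were set against 3 wild-type (WT) libraries. The labels give no age, strain or treatment and do not say how the gene was disrupted or whether each library came from a separate animal, so a p-value here sets a difference against the spread of these libraries, which may be technical.

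GIMAP proteins resemble small GTPases of the septin and plant TOC families and are best known for keeping lymphocytes alive. In mice, loss of Gimap5 leads to lymphopenia and to defects of hematopoietic stem cells, and loss of Gimap1 removes mature T and B cells. Several members carry a membrane anchor and sit on the lysosome, the Golgi apparatus or mitochondria, while others are cytosolic.

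The members share the GTP-binding P-loop but differ in the rest of their coding sequence, which bears on how reads could be assigned between them. The P-loop was located by its spacing of glycine, lysine and serine or threonine codons in the longest coding sequence of each member in GENCODE M21 transcripts (GRCm38, chromosome 6). The coding bases of each P-loop are given 5′ to 3′, with the codons of the first glycine and of the closing glycine, lysine and serine in capitals.
Gimap1: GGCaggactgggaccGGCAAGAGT
Gimap3: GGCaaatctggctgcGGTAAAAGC
Gimap4: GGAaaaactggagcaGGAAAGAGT
Gimap5: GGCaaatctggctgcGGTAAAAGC
Gimap6: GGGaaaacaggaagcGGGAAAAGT
Gimap7: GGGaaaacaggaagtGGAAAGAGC
Gimap8 site 1: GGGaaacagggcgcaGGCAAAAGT
Gimap8 site 2: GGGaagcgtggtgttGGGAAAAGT
Gimap8 site 3: GGAaggagtggggctGGAAAGAGT
Gimap9: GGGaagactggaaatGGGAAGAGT
Gimap3 and Gimap5 had the same 24 bases there, and Gimap8 held 3 P-loops in a coding length of 2064 bases, against 873 to 984 bases for the others. Coding identity was 90.4% over 895 aligned bases between Gimap3 and Gimap5, whose longest identical run was 140 bases. In the other pairs it ran from 55.7% to 66.6%, and no identical run was longer than 17 bases.

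Reads could be split between Gimap3 and Gimap5 for this reason, and no source used here says how shared reads were counted. Of the 50-base words in its longest coding transcript, 9.06% of Gimap3 also occurred in Gimap5, and 9.98% of Gimap5 also occurred in Gimap3. The annotated readthrough gene Gm28053 shared 10.3% of such words with Gimap1, 5.51% with Gimap5 and 2.62% with Gimap7. Gm28053 is not among the gene symbols with deposited counts. Gimap4, Gimap8 and Gimap9 shared 0 words with any other gene, and Gimap6 shared 0.0639%. The deposited counts of Gimap1, Gimap3 and Gimap5 were not whole numbers in any of the 6 libraries, and those of Gimap8 were not whole in 5, whereas those of Gimap4, Gimap6, Gimap7 and Gimap9 were whole throughout. The levels of Gimap1, Gimap3 and Gimap5 are therefore less certain than those of Gimap4, Gimap6 and Gimap9. For Gimap7 and Gimap8 the shared words and the counts differ: Gimap7 shared words but had whole counts, and Gimap8 the reverse.

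Library totals lay between 25993971 and 28743672 counts, and 12875 genes had enough counts to be tested, the 8 members among them. Hdac6, the targeted gene, measured 9.62, 7.69 and 11.28 CPM (counts scaled to library size) in the KO libraries, against 67.97, 58.24 and 54.32 CPM in WT, with a log2 fold change of -2.66 (SE 0.19, edgeR adjusted p = 0.000594). It was the 1 gene that passed an adjusted p of 0.05 by edgeR. By a chi-square of the counts, the KO libraries differed more from each other than the WT libraries did. The chi-square of the counts over degrees of freedom was 43.8 between KO replicates 1 and 2, 55.8 between 1 and 3 and 51.5 between 2 and 3, and 33.8 to 37.9 among the WT libraries. KO replicate 3 lay nearer to the WT libraries (24.9 to 34.2) than to either other KO library. This chi-square scales counts by library totals, without the TMM factors used for CPM, and genes with high counts weigh most in it. Results for the family are given with each KO library left out where that moves them. The T cell receptor subunit genes Cd3e, Cd3d and Cd3g were at 0 to 0.471 CPM in KO and 0 to 0.151 CPM in WT.

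The genes of the sort gate differed between the groups in values. Kit, the gene of c-kit, measured 725, 817 and 1082 CPM in KO and 1323, 1367 and 1127 CPM in WT (log2 fold change -0.54, SE 0.15). Ly6a, the gene of Sca-1, measured 82.1, 119 and 119 CPM in KO and 60.3, 68.7 and 66.2 CPM in WT (log2 fold change 0.71, SE 0.16). Cd34, a progenitor surface marker, measured 1491, 1360 and 1647 CPM in KO and 1821, 1755 and 1729 CPM in WT (log2 fold change -0.24, SE 0.10). In all 3 the groups did not overlap, as in 8.86% of all tested genes with KO above and 9.7% with KO below. The edgeR adjusted p was 0.298, 0.298 and 0.344, so 0 passed by edgeR. At an unadjusted edgeR p under 0.05, 1 was higher and 2 were lower, beside 7.24% and 6.15% of all tested genes. DESeq2 called Ly6a higher and Kit lower, beside 0.897% and 0.456% of genes. The part of the sorted population in the GIMAP values was not tested.

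LSK cells of both genotypes had high mRNA levels of Gimap6 and Gimap1, with the other members lower. Per length, in the deposited FPKM, which scales fragments to gene length and library size, Gimap6 and Gimap1 together made up 74.2% to 79.3% of the summed family level in every library. Gimap6, which is known to bind an autophagy adaptor of the GABARAP group, had 118.35, 103.9 and 207.01 FPKM in KO and 279.55, 241.13 and 149.92 FPKM in WT. Gimap1, which sits on the Golgi apparatus, had 116.27, 78.81 and 161.92 FPKM in KO and 168.87, 147.47 and 136.93 FPKM in WT. By mean FPKM over the 6 libraries these members ranked 574 and 831 among all 16022 genes.

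Gimap9 and Gimap5 came next, at median percentiles of 83.0 and 72.3 among all genes, and the remaining members were at 40.2 to 56.5. Gimap9 averaged 41.2 ± 7.79 FPKM in KO and 50.1 ± 10.6 FPKM in WT, and Gimap5 averaged 19.3 ± 7.76 FPKM in KO and 32.7 ± 11.0 FPKM in WT (SD, n = 3 each). Gimap7 stood at 6.28 to 11.14 FPKM in KO and 8.88 to 14.41 FPKM in WT. Gimap4, Gimap3 and Gimap8 ran from 0.96 to 8.65 FPKM in KO and from 1.56 to 5.83 FPKM in WT. The median gene stood at 5.15 to 5.96 FPKM over the 6 libraries. Gimap8, at 0.96 to 2.73 FPKM in KO and 2.09 to 3.98 FPKM in WT, was below the median gene in every library. The order Gimap6, Gimap1, Gimap9, Gimap5 held in all 6 libraries, and the ranges of Gimap1 and Gimap9 did not overlap. Among the low members the order was not fixed: Gimap7 exceeded Gimap4 in 5 of 6 libraries, Gimap4 exceeded Gimap3 in 5 and Gimap3 exceeded Gimap8 in 4, with overlapping ranges.

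**Figure D1:**
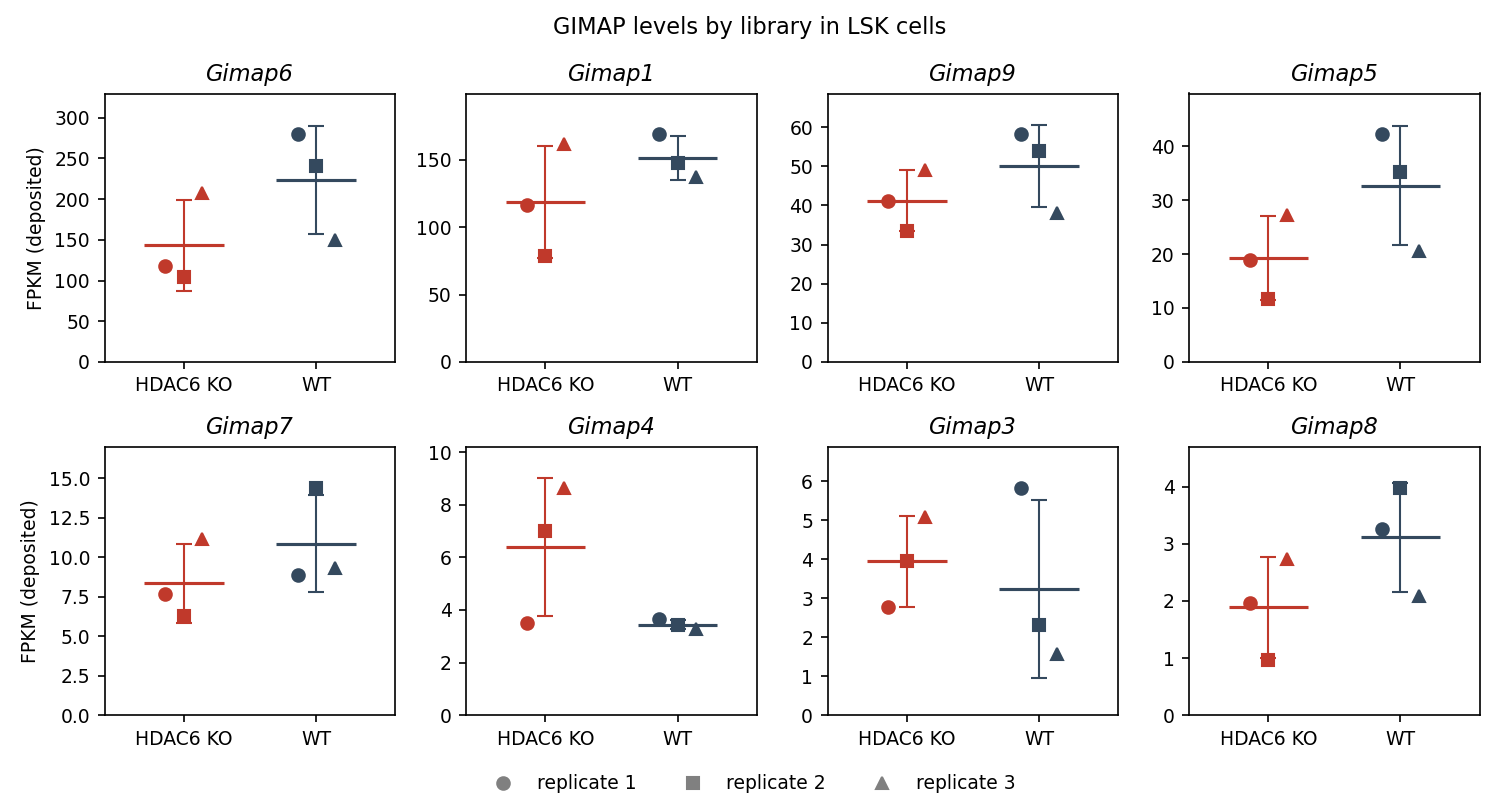
Deposited FPKM (vertical axis, from 0, scaled per gene) of the 8 GIMAP genes in 3 HDAC6 KO and 3 WT libraries, one point per library with the marker giving the replicate number, horizontal lines for group means and bars for the SD. In FPKM the groups overlap for every member, Gimap4 included, whose lowest KO library (3.52) lies within the WT values (3.28 to 3.64).

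Of the 8 members, 6 lay below WT in the KO and 2 lay above, and 0 passed the test over all genes in either direction. The percentage of all tested genes called was 0% for higher and 0.00777% for lower. The median log2 fold change of the members was -0.30, beside -0.0034 over all tested genes, of which 50.5% lay below WT. At an unadjusted edgeR p under 0.05 there was 1 member on the higher side, Gimap4, where 7.24% of all tested genes stood, and 1 on the lower side, Gimap5, where 6.15% stood. DESeq2 called 0 members, against 0.897% of genes higher and 0.456% lower. In bulk RNA a smaller share of cells expressing a gene and less RNA per cell cannot be told apart.

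Gimap6 and Gimap1 were lower than every WT library in KO replicates 1 and 2 and not in KO replicate 3. Gimap6 measured 173, 151 and 286 CPM in KO and 380, 324 and 207 CPM in WT. KO replicate 3 lay above WT replicate 3, so the groups overlapped. Its log2 fold change was -0.58 (SE 0.27, edgeR adjusted p = 0.385), and an exact permutation test (two-sided) gave p = 0.2, where 0.1 is the smallest that 3 against 3 can give. Gimap1 measured 157, 105 and 206 CPM in KO and 212, 183 and 175 CPM in WT, with a log2 fold change of -0.28 (SE 0.20). The edgeR adjusted p of Gimap1 was 0.556.

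Gimap5, whose loss in mice impairs T cells and stem cells, measured 34.2, 21.0 and 46.4 CPM in KO and 70.9, 58.7 and 35.2 CPM in WT. KO replicate 1 was just below WT replicate 3, and KO replicate 3 lay above it. The log2 fold change was -0.70 (SE 0.31), the lowest of the members, and the edgeR adjusted p was 0.369. Of all tested genes, 6.0% had a log2 fold change at or below that value. Gimap9 measured 50.4, 40.5 and 56.6 CPM in KO and 66.1, 60.6 and 44.2 CPM in WT (log2 fold change -0.21, SE 0.18, edgeR adjusted p = 0.621).

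Gimap8 and Gimap7 followed the same direction at low levels. Gimap8, the long member with 3 P-loops, measured 7.12, 3.44 and 9.14 CPM in KO and 10.9, 13.2 and 7.12 CPM in WT, a log2 fold change of -0.67 (SE 0.37, edgeR adjusted p = 0.45). Gimap7 measured 8.45, 6.85 and 11.6 CPM in KO and 9.12, 14.6 and 9.77 CPM in WT, a log2 fold change of -0.31 (SE 0.29, edgeR adjusted p = 0.645). For both genes KO replicate 2 was the lowest library and the groups overlapped.

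Gimap3, the close copy of Gimap5, did not share its direction. It measured 5.62, 7.90 and 9.72 CPM in KO and 10.9, 4.31 and 2.99 CPM in WT, so that WT replicate 1 was the highest and WT replicate 3 the lowest of the 6 libraries. The log2 fold change was 0.35 (SE 0.45, edgeR adjusted p = 0.753). It rested on single WT libraries, at 1.08 (SE 0.36, edgeR adjusted p = 0.469) without WT replicate 1 and 0.03 (SE 0.43) without WT replicate 3. The ratio of Gimap5 to Gimap3 in FPKM was 6.79, 2.96 and 5.34 in KO and 7.23, 15.2 and 13.2 in WT.

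Gimap4, a member without a membrane anchor that in rodents acts in T cell death, was the 1 member of 8 whose groups did not overlap in CPM. It measured 5.25, 10.9 and 13.0 CPM in KO and 5.03, 5.02 and 4.39 CPM in WT. KO replicate 1 was 5.25 CPM, close to the highest WT value of 5.03 CPM, and KO replicates 2 and 3 carried the difference. In FPKM, KO replicate 1 (3.52) lay within the WT values (3.28 to 3.64), so the separation depends on the scaling. The log2 fold change was 1.01 (SE 0.34, edgeR p = 0.0143, adjusted p = 0.309), and an exact permutation test (two-sided) gave p = 0.1, the smallest that 3 against 3 allows. The counts behind these values were 143, 302 and 358 in KO and 140, 142 and 116 in WT. Over all tested genes, 8.86% had non-overlapping groups with KO above and 9.7% had them with KO below. As a share of the summed family FPKM, Gimap4 stood at 1.133%, 2.85% and 1.83% in KO and 0.638%, 0.681% and 0.906% in WT.

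Without KO replicate 3 the members lay further from WT on the lower side. The log2 fold change was then -0.99 (SE 0.31) for Gimap5, -0.98 (SE 0.41) for Gimap8, -0.91 (SE 0.22) for Gimap6, -0.54 (SE 0.31) for Gimap7, -0.53 (SE 0.17) for Gimap1 and -0.33 (SE 0.20) for Gimap9. The values for Gimap4 and Gimap3 were 0.75 (SE 0.37) and 0.15 (SE 0.53). The lowest edgeR adjusted p among the 8 was 0.0862, for Gimap6, so 0 members passed the threshold. Without KO replicate 2 the members lay nearer to WT, with log2 fold changes of -0.45 (SE 0.28) for Gimap5, -0.40 (SE 0.27) for Gimap6, -0.36 (SE 0.34) for Gimap8, -0.15 (SE 0.31) for Gimap7, -0.09 (SE 0.19) for Gimap9 and -0.06 (SE 0.16) for Gimap1. The median of the members was -0.54 without KO replicate 3 and -0.12 without KO replicate 2.

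Which groups overlapped depended on the library left out. Gimap4, separate with all libraries, stays so by construction when 1 is left out. The share of all tested genes with KO above was 12.2%, 11.5% and 20.6% without KO replicates 1, 2 and 3, and 13.5%, 13.2% and 16.8% without WT replicates 1, 2 and 3. Without WT replicate 1, Gimap3 was separate on that side too. On the lower side, 4 members (Gimap1, Gimap5, Gimap6 and Gimap7) were separate without KO replicate 3, beside 20.2% of all tested genes, and 4 (Gimap5, Gimap6, Gimap8 and Gimap9) without WT replicate 3, beside 18% of genes. In the other settings 0 members were separate on the lower side, where the shares of all genes were 12.6%, 12.1%, 15.9% and 13.6% without KO replicate 1, KO replicate 2, WT replicate 1 and WT replicate 2.

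**Figure D2:**
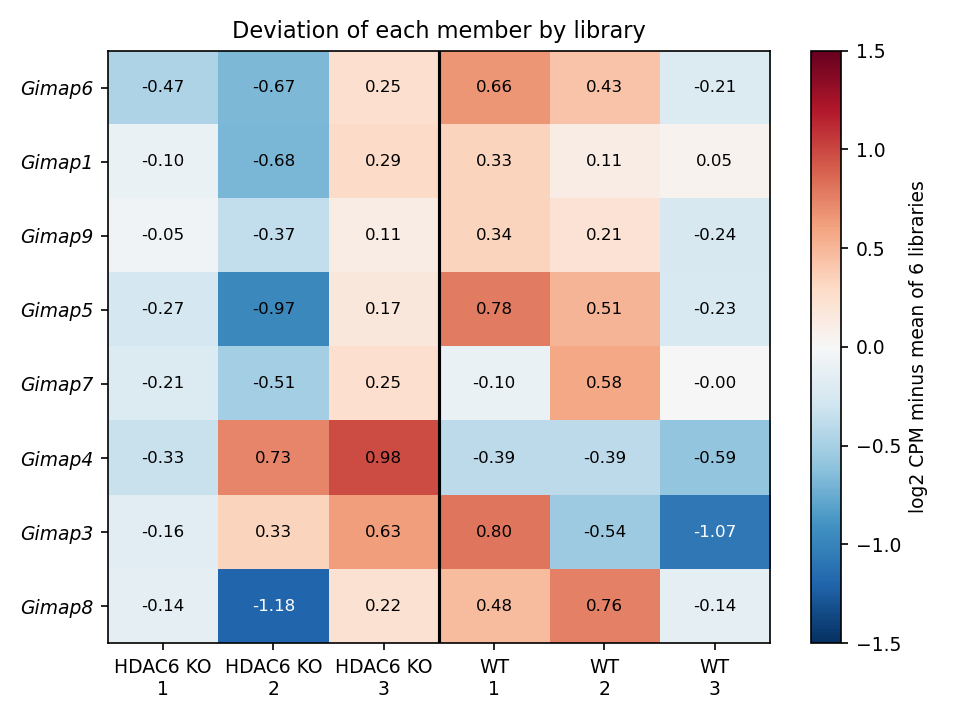
Deviation of each member's log2 CPM from its mean over the 6 libraries (colour and printed value, log2 units), with rows ordered by mean FPKM and HDAC6 KO libraries left of the line. KO replicate 2 is the lowest library for 6 of 8 members, KO replicate 3 lies above the mean for all 8, and Gimap4 is positive in KO replicates 2 and 3 and negative in every WT library.

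The summed natural killer and innate lymphoid markers were highest in KO replicates 2 and 3, as Gimap4 was. Of 14 tested markers of these cells, 13 had higher values in KO, the median log2 fold change was 2.27, and 6 had groups that did not overlap, beside 8.86% of all tested genes. By edgeR 0 of them passed the adjusted threshold and 10 were higher at an unadjusted p under 0.05, beside 7.24% of all tested genes. DESeq2 called 5 higher (Cd7, Gzma, Il2rb, Klrk1 and Ncr1), beside 0.897% of genes. Their summed level over all 15 listed markers was 292, 434 and 389 CPM in KO replicates 1 to 3 and 279, 310 and 342 CPM in WT, most of it Nkg7. Nkg7 itself measured 256, 312 and 273 CPM in KO and 260, 286 and 311 CPM in WT, so its groups overlapped. Without Nkg7, a choice made after the values were seen, the sum was 36.1, 122 and 116 CPM in KO and 18.5, 24.6 and 30.5 CPM in WT. KO replicates 2 and 3, the libraries with high Gimap4, were also high in the sum without Nkg7. In that sum KO replicate 1 was above every WT library too. Its Gimap4, at 5.25 CPM, was close to the highest WT value of 5.03 CPM.

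The leading markers of that list behaved alike at low levels. Il2rb, the interleukin-2 receptor beta chain, measured 8.78, 23.6 and 33.3 CPM in KO and 2.87, 5.76 and 5.15 CPM in WT. Cd7, a surface protein of T and natural killer cells, measured 4.22, 17.9 and 14.9 CPM in KO and 0.646, 1.73 and 3.10 CPM in WT. Klre1, a natural killer cell receptor gene, had a log2 fold change of 2.42 (SE 0.71). Each of the 3 had an edgeR adjusted p of 0.298. None of the 15 markers was at 0 in every library, and their part in the Gimap4 values was not tested. Monocyte and macrophage markers were also higher in KO replicates 2 and 3: their sum was 261, 891 and 662 CPM in KO and 327, 423 and 246 CPM in WT, and 6 of 9 had higher values in KO (median log2 fold change 0.38), with 0 called by edgeR or DESeq2 and 0 at an unadjusted edgeR p under 0.05. Neutrophil markers summed to 28.3, 29.3 and 12.7 CPM in KO and 73.1, 40.0 and 108 CPM in WT. Of the 9, 8 had lower values in KO (median log2 fold change -1.39), 6 of them at an unadjusted edgeR p under 0.05 (6.15% of all tested genes). DESeq2 called 4 lower (0.456% of genes) where edgeR called 0. Erythroid markers summed to 127, 186 and 139 CPM in KO and 112, 92.0 and 113 CPM in WT, so the groups did not overlap. By edgeR 0 of 8 tested erythroid markers were called, with 2 higher and 2 lower at an unadjusted p under 0.05 (7.24% and 6.15% of all tested genes). DESeq2 called Tfrc, the transferrin receptor gene, higher, beside 0.897% of genes. Over the 6 libraries, r of the log2 sums with Gimap4 was 0.90 for monocyte, 0.82 for natural killer, 0.77 for erythroid and -0.81 for neutrophil markers. These were the largest in size among the lists. For other markers it was 0.43 (B cells), 0.30 (megakaryocytes), -0.06 (endothelium), -0.19 (T cells) and -0.38 (sort gate). It was 0.13 for lymphoid priming genes, -0.45 for stem cell identity genes and -0.01 for genes that work with GIMAP proteins. The part of monocytes, neutrophils and erythroid cells in the Gimap4 values was not tested either.

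**Figure D3:**
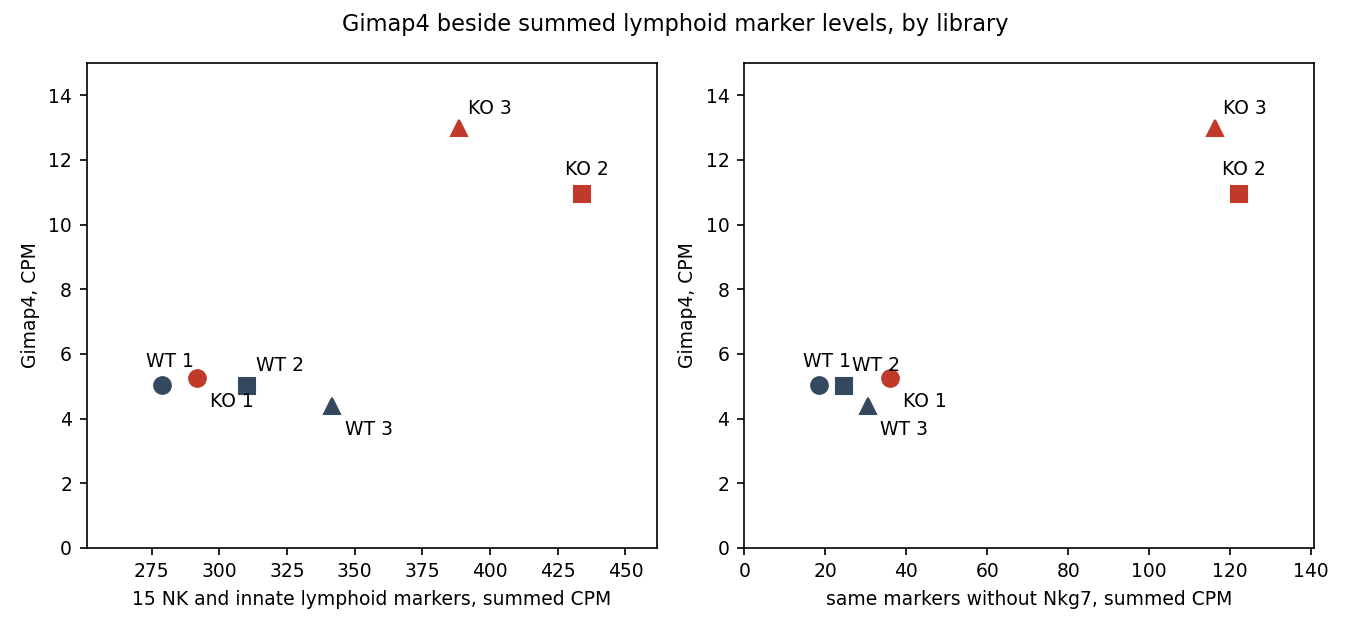
Gimap4 in CPM (vertical axis, from 0) against the summed CPM of 15 natural killer and innate lymphoid markers (left) and of the same markers without Nkg7 (right), one labelled point per library. KO replicates 2 and 3 stand at 10.9 and 13.0 CPM of Gimap4, and the other 4 libraries at 4.39 to 5.25 CPM.

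Markers of T cells, B cells and endothelium, cell types that also use GIMAP genes, had sums that overlapped between the groups. Their sums followed the family over the libraries, as did those of some other lists. The r of their log2 sums with the mean log2 CPM of the 8 members was 0.98 for endothelium, 0.91 for T cells and 0.81 for B cells (6 libraries, which the values share). It was 0.84 for lymphoid priming genes, 0.76 for stem cell identity genes, 0.73 for the sort gate and 0.22 for megakaryocyte markers. For monocyte, neutrophil, natural killer and erythroid markers it was 0.03, -0.22, -0.37 and -0.48, and for genes that work with GIMAP proteins -0.77. These r describe sums of lists and do not measure the number of such cells. Within the sums, Cd3e, Cd3d and Cd3g were each at most 0.471 CPM in any library, and the endothelial gene Cdh5 at most 0.215 CPM. Of 11 tested T cell markers, 5 had higher and 6 had lower values in KO, and their median log2 fold change was -0.03. By edgeR 0 were called, with 1 higher and 3 lower at an unadjusted p under 0.05, beside 7.24% and 6.15% of all tested genes. DESeq2 called Cd2 higher, beside 0.897% of genes. Their sum of 411, 373 and 463 CPM in KO and 454, 470 and 420 CPM in WT was mostly Cd27, Lck and Lat. Cd2, an adhesion receptor of T and natural killer cells, measured 0.514, 2.76 and 1.99 CPM in KO and 0.0718, 0.106 and 0.0757 CPM in WT. The kinase gene Lck measured 49.6 ± 6.98 CPM in KO and 66.2 ± 9.44 CPM in WT, and the adaptor gene Lat 37.5 ± 6.95 and 50.3 ± 6.67 CPM (SD, n = 3 each).

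B cell markers summed to 69.9 to 106 CPM in KO and 60.4 to 92.2 CPM in WT, with 5 of 8 tested markers above WT and a median of 0.23. Endothelial markers summed to 359 to 432 CPM in KO and 378 to 435 CPM in WT, with 3 of 9 tested markers above WT and a median of -0.04. In both lists 0 markers were called by edgeR or DESeq2 and 0 had an unadjusted edgeR p under 0.05. Cdh5, the cadherin that defines endothelium, was at 0 to 0.145 CPM in KO and 0 to 0.215 CPM in WT. Pecam1, of the same list, was at 124 to 170 CPM in KO and 138 to 154 CPM in WT. The part of these cell types in the GIMAP values was not tested.

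Some members varied together over the libraries and others did not. Over the 6 libraries, Pearson's r of log2 CPM ran from 0.82 to 0.97 among the 10 pairs of Gimap1, Gimap5, Gimap6, Gimap8 and Gimap9, a grouping chosen after the values were seen. With the group means removed, r among these pairs was 0.78 to 0.99. Gimap5 and Gimap6 had the highest r over the 6 libraries, 0.97, and lie on opposite strands. Gimap5 and Gimap9 had the highest with the group means removed, 0.99, and 0.96 without that step. Gimap7 had an r of -0.27 to 0.85 with the other members. Gimap4 had an r of -0.44 to 0.59 with the other members and Gimap3 an r of -0.27 to 0.59, the highest in both cases being the pair of Gimap3 and Gimap4. With the group means removed, the r of Gimap4 ran from 0.00024 to 0.48, with none negative, and that of Gimap3 from -0.11 to 0.73. All pairs share the same libraries and their normalization, so these values are a description.

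The mean log2 CPM of the 8 members was 4.54, 4.34 and 5.12 in KO and 5.12, 4.97 and 4.46 in WT. Genes with the most similar course over the 6 libraries were Dock3 (r = 0.999), Fam114a2 (0.995), Nlrc3 (0.991), Kdsr (0.991), Ralgapa2 (0.988) and Slc4a3 (0.985). Nlrc3, a regulator of innate immune signalling, measured 38.9 ± 13.4 CPM in KO and 44.8 ± 9.47 CPM in WT, while Dock3 measured 1.84 ± 1.34 and 2.26 ± 1.04 CPM (SD, n = 3 each). Of 12867 other tested genes, 206 (1.6%) had an r above 0.9.

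In the mouse cluster 6 members are encoded on the plus strand, and Gimap6 and Gimap3 on the minus strand. The order in GENCODE M21 is Gimap8, Gimap9, Gimap4, Gimap6, Gimap7, Gimap1, Gimap5 and Gimap3, so that Gimap4 lies between Gimap9 and Gimap6, both of which lay on the other side of WT. Of the 10 nearest measured genes, 5 on each side, 7 were tested and 0 called, with 5 below WT, 2 above and a median log2 fold change of -0.09. Next to Gimap3, the membrane protein genes Tmem176b and Tmem176a had log2 fold changes of 0.05 (SE 0.09) and -0.05 (SE 0.12). Tmem176b measured 427, 399.7 and 416 CPM in KO and 386, 423 and 391 CPM in WT.

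On the Gimap8 side, Zfp775, Repin1 and Lrrc61 had log2 fold changes of -0.27 (SE 0.21), -0.09 (SE 0.13) and -0.11 (SE 0.19). The noncoding gene Gm5111 measured 18.9, 12.5 and 26.7 CPM in KO and 35.3, 37.6 and 28.5 CPM in WT, with groups that did not overlap and a log2 fold change of -0.80 (SE 0.26, edgeR adjusted p = 0.307). Beyond Tmem176a the noncoding gene Gm7932 measured 1.80, 3.63 and 1.85 CPM in KO and 0.467, 0.566 and 1.21 CPM in WT, with a log2 fold change of 1.69 (SE 0.62). Rarres2, Aoc1 and Gpnmb were at 0 CPM in all WT libraries and at most 0.508 CPM in KO, and were not tested.

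**Figure D4:**
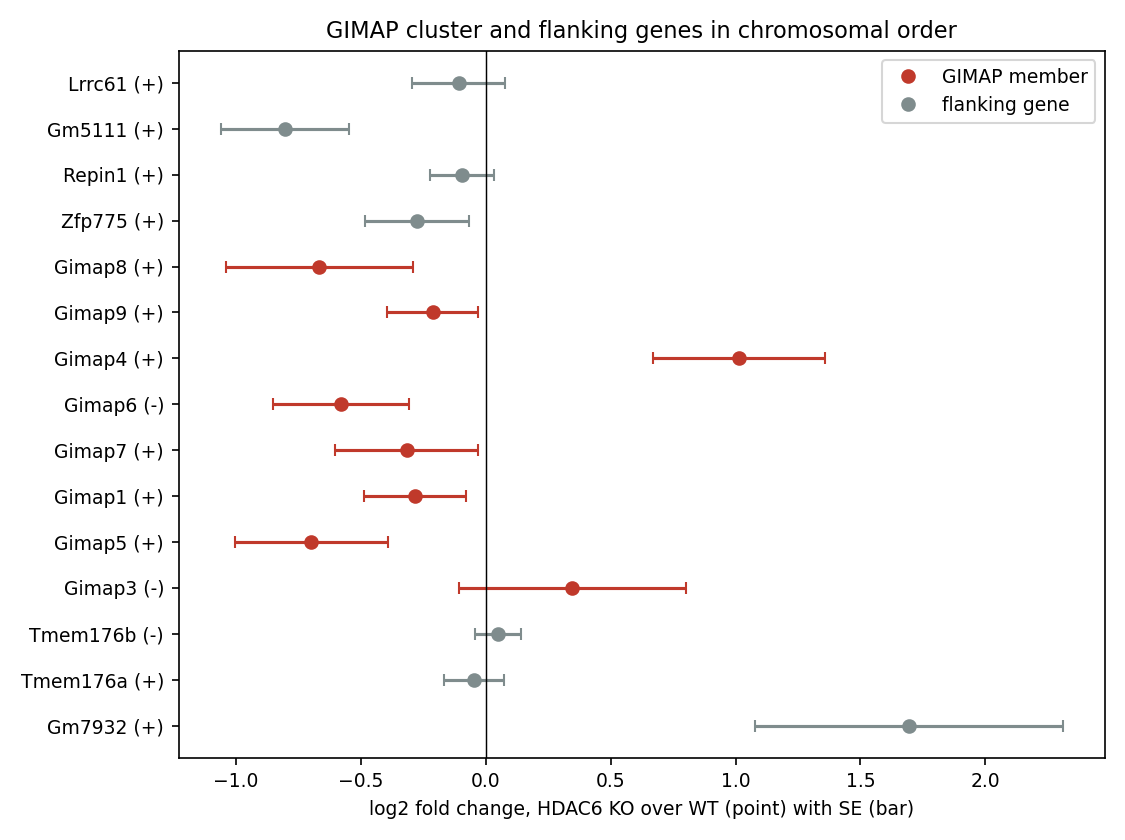
Log2 fold change of HDAC6 KO over WT (points) with its SE (bars) for the 8 GIMAP genes and the 7 tested flanking genes, from top to bottom in chromosomal order with the strand in brackets. Gimap4 at 1.01 and Gimap3 at 0.35 lie right of 0, and the other 6 members lie left of it, from -0.70 to -0.21.

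The bases before the start site are shown for Gimap5 and Gimap6, the pair with the highest r over the 6 libraries. They are also shown for Gimap4, whose values lay on the other side of WT. RefSeq promoter windows (GRCm38.p6, whereas the submitters' processing notes name GRCm39) were found for all 8 members, and the 250 bases before the start were searched on both strands for GGAAGT, a core of ETS factor sites, TGTGGT, a core of RUNX sites, and AGATAA, a core of GATA sites. The sequences are given 5′ to 3′ on the gene's own strand, with matches to the ETS and RUNX letters in capitals. Gimap5 is at chr6:48745947-48746196 (plus strand), Gimap6 at chr6:48708245-48708494 (minus strand) and Gimap4 at chr6:48684328-48684577 (plus strand).
Gimap5: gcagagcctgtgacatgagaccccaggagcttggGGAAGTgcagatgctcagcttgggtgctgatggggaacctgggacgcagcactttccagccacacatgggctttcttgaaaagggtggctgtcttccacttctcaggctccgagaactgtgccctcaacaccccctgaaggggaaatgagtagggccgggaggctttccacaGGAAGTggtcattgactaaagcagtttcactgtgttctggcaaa
Gimap6: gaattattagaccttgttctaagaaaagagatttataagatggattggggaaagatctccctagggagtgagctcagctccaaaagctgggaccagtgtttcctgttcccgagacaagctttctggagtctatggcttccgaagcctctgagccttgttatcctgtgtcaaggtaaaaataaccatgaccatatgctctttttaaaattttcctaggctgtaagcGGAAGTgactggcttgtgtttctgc
Gimap4: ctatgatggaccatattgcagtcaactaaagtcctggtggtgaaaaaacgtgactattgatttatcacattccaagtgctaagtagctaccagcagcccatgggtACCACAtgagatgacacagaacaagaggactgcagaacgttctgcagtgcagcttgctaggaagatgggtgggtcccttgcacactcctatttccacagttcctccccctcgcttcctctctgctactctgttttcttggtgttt
Gimap5 held the ETS letters beginning 216 and 44 bases before its start, and Gimap6 held them at 25 bases. Gimap4 held the RUNX letters at 145 bases, as Gimap1 did at 95 and Gimap7 at 79. In all, 2 of 8 members held the ETS letters, 3 the RUNX letters and 0 the GATA letters, beside 19.7%, 14.0% and 9.99% of 32851 promoter windows of the same length. Gimap1, Gimap8 and Gimap9, grouped above with Gimap5 and Gimap6 by r, held 0 ETS matches. All matches describe the letters only.

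Genes whose products are known to work with GIMAP proteins were read as a list of 19, without a test of the list. They include the BCL2 family, GABARAP autophagy adaptors, GSK3B and FOXO factors. Of the 19 genes, 11 lay above WT and 8 below, and their median log2 fold change was 0.0092. By edgeR and DESeq2 0 were called, and 1 was higher and 1 lower at an unadjusted edgeR p under 0.05, beside 7.24% and 6.15% of all tested genes. Bax, a promoter of cell death, measured 85.3 ± 13.1 CPM in KO and 66.8 ± 2.01 CPM in WT (log2 fold change 0.35, SE 0.14, edgeR adjusted p = 0.334). Foxo3, a transcription factor of stem cell quiescence, measured 43.3 ± 9.32 CPM in KO and 57.8 ± 9.46 CPM in WT. Nfatc1, a calcium-regulated transcription factor, had a log2 fold change of -0.26 (SE 0.12).

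Genes of the cells that use the family were read in the same way. Of 22 lymphoid priming genes, 16 lay below WT and 6 above, and the median log2 fold change was -0.16. By edgeR 0 were called, with 2 higher and 3 lower at an unadjusted p under 0.05, beside 7.24% and 6.15% of all tested genes. DESeq2 called Ikzf3 higher, beside 0.897% of genes. Lsp1, an actin-binding protein gene of leukocytes, measured 205 ± 36.9 CPM in KO and 268 ± 37.7 CPM in WT, and the transcription factor gene Foxp1 155 ± 11.9 and 186 ± 5.05 CPM. Ikzf3, a lymphoid transcription factor, measured 3.18 ± 2.41 CPM in KO and 0.201 ± 0.316 CPM in WT (SD, n = 3 each). Of 20 stem cell identity genes, 16 lay below WT and 4 above, and the median log2 fold change was -0.40. By edgeR and DESeq2 0 were called, and 1 was higher and 9 lower at an unadjusted edgeR p under 0.05, beside 7.24% and 6.15% of all tested genes. Mecom, a transcription factor gene of stem cells, measured 36.2 ± 10.8 CPM in KO and 60.4 ± 11.6 CPM in WT, and Pdzk1ip1 21.0 ± 8.35 and 36.7 ± 3.36 CPM (SD, n = 3 each).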

How the data were processed

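RNA-seq of bone marrow LSK cells was analysed from 1 table with 3 KO and 3 WT libraries. Per the file headers, the authors deposited a read count and an FPKM value per gene symbol and library. Between 19.6% and 20.9% of the deposited counts per library were not whole, so they were treated as estimated counts and rounded. Per the submitters' processing notes, the tools include featureCounts 2.0.3, HISAT2 2.2.1, DESeq2 and SAMtools 1.13, and the build is GRCm39. No source used here gives the annotation, strand setting or handling of shared reads.

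KO was compared with WT by edgeR 4.0.16 (R 4.3.3), using the quasi-likelihood test with robust dispersion, filterByExpr with a minimum count of 10, TMM factors, and Benjamini-Hochberg adjustment over 12875 genes with a threshold of 0.05. CPM are TMM-normalised. SE is the log2 fold change over the root of F. DESeq2 1.42.0 and limma 3.58.1 were alternatives. Log2 CPM for correlations and permutation tests used a prior count of 2. On simulated counts for these genes, edgeR recovered 21.4%, 61.7% and 80.8% of changes of 1.5, 2 and 4 fold. These were 201, 201 and 198 changed genes over 3 simulations, with the same spread in both groups. In the data the KO libraries were more spread by the chi-square given above and edgeR called 1 gene, so the shares may be too high for them.

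Named genes were the 8 members, Hdac6, the 3 smallest p of each list, the 10 flanking genes and the 6 most similar genes. Those of the B cell, endothelial, neutrophil, monocyte, erythroid and megakaryocyte lists are not given except Tfrc, 1 gene of the stem cell list is not reported here, and other markers named were chosen after their values were seen. Erythroid and megakaryocyte markers had median log2 fold changes of -0.13 and -0.28; for megakaryocyte markers 0 were called by edgeR or DESeq2. The members and lists were chosen with earlier results of these data known.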

Additional observations from a re-analysis of the deposited data

How the results depend on the processing

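All 8 members kept their direction under each of the 18 alternatives, and 0 passed an adjusted p of 0.05 in any of them. The alternative with a threshold of 0.01 left the fit unchanged, so no direction could move there. The lowest adjusted p of a member was 0.0862, for Gimap6 without KO replicate 3, where its log2 fold change was -0.91. The log2 fold change of Gimap4 ran from 0.66 on log2(FPKM + 1) to 1.31 without KO replicate 1, and that of Gimap5 from -0.99 without KO replicate 3 to -0.45 without KO replicate 2. The median of the members was -0.12 without KO replicate 2 and -0.54 without KO replicate 3, and lay between these values under all other alternatives. Over all genes DESeq2 called 120 higher and 61 lower, where edgeR called 0 and 1. With 1 library left out edgeR called 0 to 30 higher and 1 to 14 lower, the highest without KO replicate 3, and without KO replicate 1 it called 1 and 3. The same-numbered KO and WT libraries did not deviate together (r = 0.03, -0.04 and -0.12), and those with unlike numbers had r of -0.07 to 0.11. The labels do not say whether the numbers pair the libraries, and these values cannot settle it. With the replicate block edgeR called 0 higher and 1 lower and the median of the members was -0.32. Counts per library reached down to 78.57 for Gimap3, 95 for Gimap8 and 116 for Gimap4.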
